A study of Mus musculus with 20 samples.

Results

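Mouse bone marrow-derived macrophages were given a lipoparticle that carried the component coded 3M (LP 3M), and were compared with macrophages given the lipoparticle alone (LP). The comparison uses 10 of the 20 libraries of the series, 5 of LP 3M and 5 of LP, chosen by their titles, and it covers 12132 of the 24421 genes in the tables. Of the 12289 genes left out by a filter on low counts, 7738 had no count in these 10 libraries and 4551 had some. The marrow came from 5 mice. Each mouse gave 1 library to each condition, and libraries with the same number in the title carry the same mouse identifier. Both groups were cultured in DMEM Glutamax with fetal bovine serum, and supernatant of the fibroblast line L929 supplied CSF-1, the growth factor that turns marrow cells into macrophages. RNA was taken after 48 h of exposure. Both groups received the lipoparticle, so what the lipoparticle does by itself is not measured here. The labels do not spell out 3M, and they give no strain, sex, age or dose. A further group of 5 libraries from the same mice, in which the lipoparticle carried the component coded PIC (LP PIC), is used below only where LP 3M was tested against it directly.

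Macrophages sense microbial products through Toll-like receptors, lectins and formyl peptide receptors. Toll-like receptors act through adaptor proteins and kinases on NF-kB, a family of transcription factors, and on the MAP kinases, which together switch on cytokines, chemokines and their own inhibitors. A second branch, through interferon regulatory factors and secreted interferon, switches on antiviral genes. Activated macrophages also change their metabolism, their surface receptors and their rate of division. The genes are described below in that order, from receptors and signalling to secreted products, metabolism, surface molecules and the cell cycle.

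Depth ran from 9740528 to 23779581 gene counts in LP, with LP of mouse 2 the shallowest, and from 21902777 to 23874805 in LP 3M. Each library held counts for 13593 to 14193 genes. Levels of single genes are CPM (counts relative to TMM-scaled library size). On plain library totals 3 counts correspond to 0.126 to 0.308 CPM. A principal component analysis of the 1000 genes with the highest variance put 71.8% of the variance on a first axis that separated the groups, and LP 3M of mouse 5 lay nearest to LP, at 10.7 against 34.3 to 51.6 for the other LP 3M libraries. The second held 15.3% and separated mice 1 and 2 from mice 3, 4 and 5. The same mice were separated by Xist, the transcript of the silenced X chromosome, at 285 to 421 CPM in mice 1 and 2 and 0 in the others. Of the Y-linked genes Ddx3y ran from 38.3 to 49.8 CPM in mice 3, 4 and 5 and was at 0 in mice 1 and 2. Named genes whose call against LP rests on 1 mouse or on 1 of these sets of mice are marked where they occur. For counts over gene lists only some are marked, and the closing section gives how many moved. Macrophage markers summed to 11357 to 18858 CPM in LP and 21460 to 26983 in LP 3M, on plain library totals. Of the 9, 5 rose and 1 fell. The sum was mostly Lyz2, at 5543 to 12378 and 11311 to 18640 CPM, whereas Cd68 ran from 2232 to 2831 in LP and 1760 to 2166 in LP 3M and was not called, and Mertk, which fell, from 37.4 to 72.0 and 19.9 to 49.7.

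Relative to LP, 4790 genes passed edgeR's quasi-likelihood test at an adjusted p under 0.05, which is 39.5% of the genes tested. Of these 2422 were higher in LP 3M (20%) and 2368 lower (19.5%). Below, a gene is said to rise or fall only where it passed this test; all 5 mice then showed the direction, except where a smaller number is printed. The size of a change is a log2 fold change ± SE (n = 5 per group), with the Benjamini-Hochberg adjusted p of that test. This fit held no term for mouse, although the libraries pair by mouse. With mouse as a block, an alternative, 5558 genes were called over the 20 libraries and 5963 in the 10 libraries alone. Counts of list members stand beside the 20% of all tested genes that rose and the 19.5% that fell. For genes with few counts in LP the SE is a rough guide. The split between higher and lower depends on the scaling. With plain library totals 1686 genes were higher and 3566 lower, so that 32.1% of calls were higher, against 50.6%, and the median over all genes moved from −0.0128 to −0.12. All genes that fell in the first fit also fell in the second, and 69.6% of those that rose did.

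The median called change was 0.48 for the rises and −0.55 for the falls on the log2 scale. A change of at least 2-fold was called for 1165 genes (9.6%), 635 of them higher (5.23%) and 530 lower (4.37%), of at least 4-fold for 304 and 102, and of at least 16-fold for 99 and 3. Within each mouse, 2314 of the 2422 risen genes were higher in 5 of 5 mice and 2242 of the 2368 fallen genes lower in 5 of 5. For 1706 of the risen and 1462 of the fallen genes the 5 LP 3M libraries did not overlap the 5 LP libraries. Over all tested genes, called or not, such a gap was found upward in 14.8% and downward in 12.9%.

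**Figure D1:**
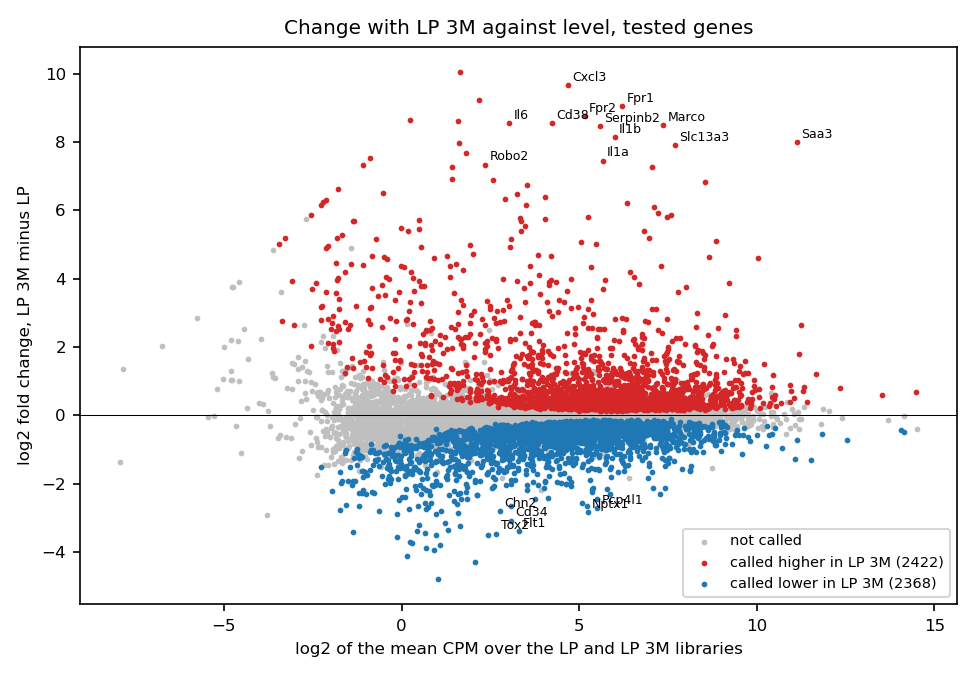
Each point is 1 of the tested genes, with the log2 of its mean CPM over the 10 libraries on the horizontal axis and its log2 fold change, LP 3M minus LP, on the vertical axis. Red marks the 2422 genes called higher and blue the 2368 called lower; the rises reach beyond 8 on the log2 scale, while named falls lie above −4.

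The 12 largest rises among genes with at least 10 CPM in LP 3M were those of Cxcl3, Fpr1, Fpr2, Cd38, Il6, Marco, Serpinb2, Il1b, Saa3, Slc13a3, Il1a and Robo2. The 12 largest falls, among genes with at least 10 CPM in LP, were those of Tox2, Flt1, Cd34, Nptx1, Chn2, Pcp4l1, Nanos1, Rasgrp3, Mamdc2, Chst3, Efr3b and Cspg4. The rule that named these 24 took only genes with 1 direction in 5 of 5 mice. The 12 rises ran from 7.34 to 9.67 on the log2 scale and the 12 falls from −3.46 to −2.42.

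**Figure D2:**
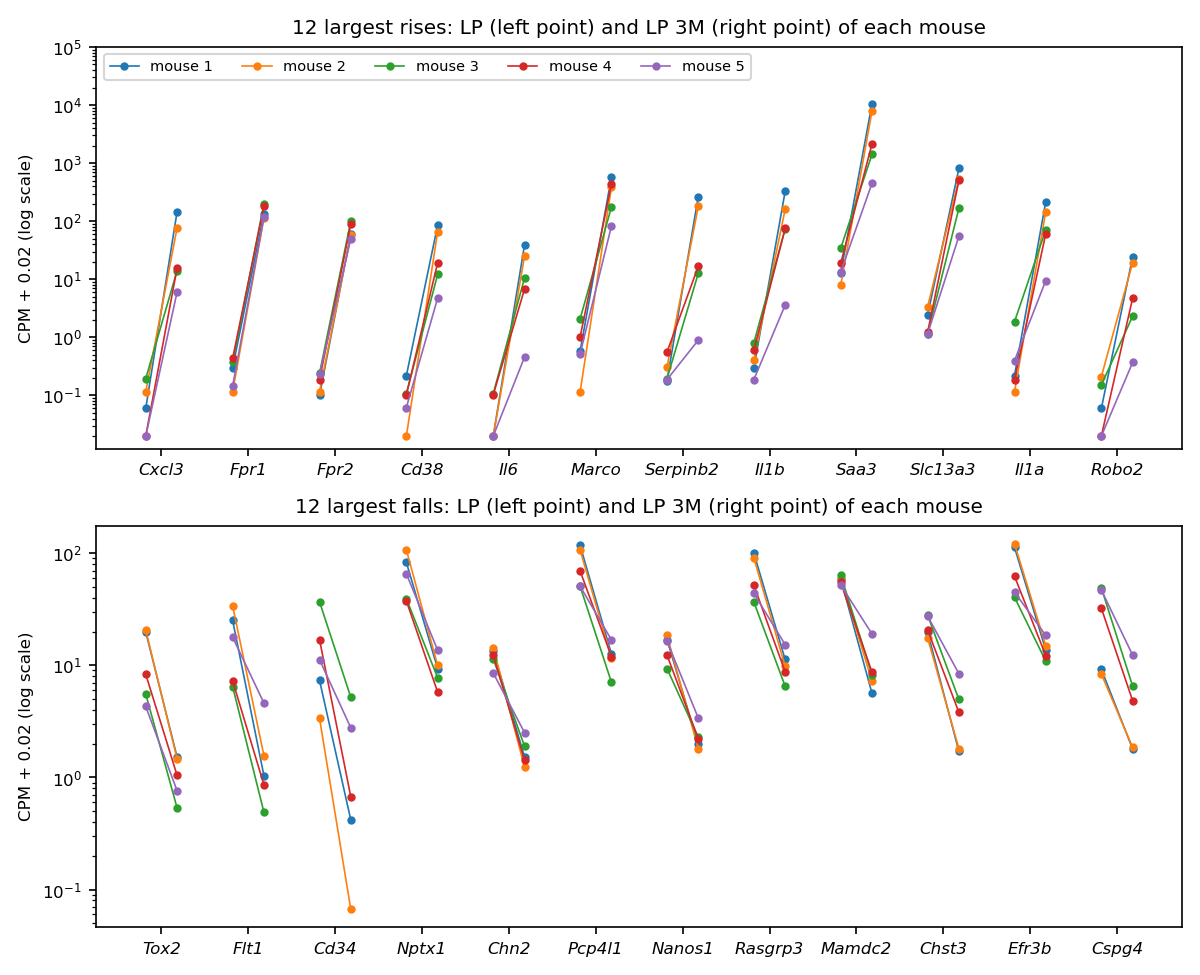
CPM plus 0.02 on a log axis for the 12 largest rises and the 12 largest falls, with a line for each mouse from its LP library (left) to its LP 3M library (right). The genes were chosen for 1 direction in 5 of 5 mice. In Il1b, Il6, Serpinb2 and Robo2 the LP 3M value of mouse 5 lies well under the values of the other 4 mice.

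Receptors for formyl peptides were among the largest rises. Fpr1, a receptor for formylated peptides of bacteria and mitochondria (chr17:17876471-17883940, GRCm38), stood at 0.279, 0.0958, 0.351, 0.414 and 0.126 CPM in LP of mice 1 to 5 and at 134, 112, 198, 181 and 116 in LP 3M. It was nearly silent in every LP library and high in every LP 3M library, mouse 5 included, a change of 9.06 ± 0.53 (adjusted p = 6.39e-10). Its neighbour Fpr2 (chr17:17887824-17893952), a receptor for formyl peptides and serum amyloid A, went from 0.0798–0.219 to 49.8–100.2 CPM (8.75 ± 0.67, adjusted p = 1.5e-08). Fpr3, the third gene of that locus, had 0 counts in LP and 2 in LP 3M and was not tested. Of 30 chemoattractant and metabolite receptors 23 were tested, and 12 rose and 3 fell (median 0.56). Adora2a, an adenosine receptor, rose by 6.17 ± 0.43 (from 0.0958–0.519 to 9.71–30.3 CPM) and Gpr84, a receptor for medium-chain fatty acids, by 4.34 ± 0.32, while C5ar2, a receptor for complement C5a, fell by 1.26 ± 0.22. Without mouse 1, 2 or 4 only 1 of the 3 falls was called in this list. C5ar2 itself kept its call under the alternatives run (highest adjusted p = 0.0067).

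Of 10 chemokine receptors tested, 2 rose and 2 fell, near the shares over all tested genes (20% and 19.5%). Cxcr4, the receptor for the stromal chemokine Cxcl12, stood at 127, 138, 215, 193 and 282 CPM in LP and 35.2, 37.9, 37.9, 31.6 and 124 in LP 3M, a fall of 1.84 ± 0.43 (adjusted p = 0.00241) in which mouse 5 kept the highest value. Cxcr3, a receptor for interferon-induced chemokines, fell by 1.65 ± 0.31, and Ccr9, a gut-homing receptor, rose by 4.19 ± 0.57 to 0.626 CPM. Without mouse 1, 3, 4 or 5 only 1 of the rises was called, and 4 rose and 3 fell with mouse as a block.

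Of 16 Toll-like receptor and coreceptor genes 8 rose and 2 fell (median 0.44). Tlr2, the receptor for bacterial lipoproteins, rose by 2.25 ± 0.21 (78.7 to 375 ± 45.3 CPM), its partner Tlr1 by 2.56 ± 0.36, and Cd14, the coreceptor for lipopolysaccharide, by 1.64 ± 0.19 (adjusted p = 2.81e-06). Tlr13, a sensor of bacterial ribosomal RNA, fell by 0.65 ± 0.20 (adjusted p = 0.0148), which did not hold without mouse 1, 3 or 4 or in mice 3 to 5 alone (highest adjusted p = 0.15). No fall in this list was called without mouse 1 or 4, 1 without mouse 3, and 4 with mouse as a block in the 10 libraries alone. Below the receptors, 10 of 23 adaptors and kinases rose and 6 fell, the falls dropping to 3 without mouse 1 or 3 and 2 without mouse 4. Irak3, an inhibitory kinase of the pathway, showed 26.4, 24.3, 30.8, 28.6 and 26.4 CPM in LP and 286, 232, 232, 261 and 164 in LP 3M. The groups were far apart and the LP values nearly equal, which gave 3.10 ± 0.15 (adjusted p = 4.06e-11), one of the smallest p-values of the comparison. Ikbke, an NF-kB and interferon kinase, rose by 1.75 ± 0.13 and Map3k8, which activates the ERK kinases, by 0.94 ± 0.11. Traf6, the ubiquitin ligase shared by Toll-like and interleukin-1 receptors, fell by 0.46 ± 0.085 (adjusted p = 0.000281).

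Of 28 NF-kB subunits and inhibitors 18 rose and 1 fell (median 0.91), and the per-mouse medians were 0.84, 0.94, 1.01, 0.99 and 0.86, with mouse 5 in the same range as the rest. The rises numbered 17 or 18 under each alternative that was run. Nfkbiz, an inducible coactivator of secondary response genes, stood at 11.9, 13.6, 14.5, 15.5 and 10.8 CPM in LP and 251, 181, 189, 241 and 94.6 in LP 3M (3.85 ± 0.28, adjusted p = 7.47e-09). Zc3h12a, an RNase that degrades cytokine transcripts, went from 26.1–37.9 to 161–274 CPM, and Tnfaip3, which encodes the inhibitor A20, rose by 1.95 ± 0.14. Map3k14, the NF-kB-inducing kinase of the non-canonical branch, fell by 0.34 ± 0.10 (adjusted p = 0.0119), which was not called in mice 1 and 2 alone (adjusted p = 0.15). Without mouse 1 the falls numbered 2, and with plain library totals 3.

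Of 16 MAP kinase phosphatases, which switch those kinases off, 6 fell and 1 rose (median −0.42; 10 fell with mouse as a block in the 10 libraries alone), among them Dusp9 by 1.67 ± 0.29 and Dusp8 by 0.82 ± 0.16, and Dusp3 by 0.41 ± 0.095, which was not called in mice 3 to 5 alone (adjusted p = 0.0636). The rise was that of Dusp16 (0.80 ± 0.29, adjusted p = 0.0366) and was lost without mouse 1, 2, 3 or 4 (highest adjusted p = 0.158). AP-1 and immediate early factors went both ways, with 8 of 28 higher and 7 lower (median 0.02; 12 lower with that block). Batf, a partner of Jun proteins, rose by 3.03 ± 0.32, Ier3, an immediate early gene, by 3.13 ± 0.35 and the small Maf factor Maff by 2.17 ± 0.24, while its relative Mafk fell by 0.48 ± 0.085.

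The chemokines that attract neutrophils through CXCR2 had the highest list median, 5.93 over the 5 tested of 7 members, and all 5 rose. Cxcl1, Cxcl2, Cxcl3, Cxcl5 and Pf4 lie together on chromosome 5; Pf4, platelet factor 4, is in the list and acts largely through other receptors. The 250 bases before the RefSeq start (GRCm38.p6) of Cxcl1, Cxcl2 and Cxcl3, and of the cytokine gene Il6, are printed here 5′ to 3′ on the plus strand. They were chosen because they hold a kB-type match, after the matches were seen. The window of Pf4 held none. Among the other named genes, the windows of Slc6a12, Gbp5, Ifngr2 and Csf1 also held such a match. Of these, Csf1 was not called in the main fit (adjusted p = 0.137). Capitals mark the match of a kB-type motif, GGGA then any base then TTTCC, searched on both strands. The regions are chr5:90890995-90891244 for Cxcl1, chr5:90903649-90903898 for Cxcl2, chr5:90785851-90786100 for Cxcl3 and chr5:30012864-30013113 for Il6.
Cxcl1: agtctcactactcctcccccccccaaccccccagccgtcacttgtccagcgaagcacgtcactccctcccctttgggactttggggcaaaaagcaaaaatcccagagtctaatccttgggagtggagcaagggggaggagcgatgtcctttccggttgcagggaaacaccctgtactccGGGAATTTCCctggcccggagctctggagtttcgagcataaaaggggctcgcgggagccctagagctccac
Cxcl2: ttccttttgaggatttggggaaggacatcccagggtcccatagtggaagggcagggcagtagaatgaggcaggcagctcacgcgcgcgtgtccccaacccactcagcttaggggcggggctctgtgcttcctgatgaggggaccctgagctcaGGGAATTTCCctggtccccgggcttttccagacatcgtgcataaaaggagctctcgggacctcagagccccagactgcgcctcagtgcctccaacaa
Cxcl3: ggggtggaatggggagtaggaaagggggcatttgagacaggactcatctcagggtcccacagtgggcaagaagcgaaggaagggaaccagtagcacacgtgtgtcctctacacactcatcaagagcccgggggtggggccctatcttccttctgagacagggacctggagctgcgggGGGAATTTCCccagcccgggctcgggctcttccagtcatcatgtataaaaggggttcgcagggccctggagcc
Il6: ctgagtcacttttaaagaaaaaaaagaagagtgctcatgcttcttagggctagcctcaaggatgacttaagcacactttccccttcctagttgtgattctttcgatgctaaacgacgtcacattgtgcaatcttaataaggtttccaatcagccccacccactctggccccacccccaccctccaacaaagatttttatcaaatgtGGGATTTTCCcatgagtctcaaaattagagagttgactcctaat

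Counted from the RefSeq start, the match began 71 bases before Cxcl1, 97 before Cxcl2, 73 before Cxcl3 and 44 before Il6; for Cxcl1 and Cxcl2 that start lies within the gene as placed by the coordinates given below. In windows of 250 bases before to 50 after a start, this motif was found in 2 of the 12 largest rises (16.7%), which are Cxcl3 and Il6, and in none of the 10 largest falls that had a sequence. It was in 0.545% of the tested genes with a sequence and 0.466% of all 27025 genes with one. AP-1-type letters TGANTCA were in 3 of the 12 rises and 6.47% of tested genes, and C/EBP-type letters TTGCNNAA in 4 (33.3%) and 10.2%. The CRE-type letters, TGAC followed by GTCA, were in 0 of the rises, 1 of the falls and 3.62% of tested genes. The windows of 6 of the 12 rises, Fpr1, Fpr2, Cd38, Marco, Il1b and Slc13a3, held none of these 4 letter patterns. A match is a description of letters, not a site.

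Cxcl3 (chr5:90786103-90789600) had 6 counts in the 5 LP libraries together and stood at 144, 76.0, 13.9, 15.4 and 5.95 CPM in LP 3M of mice 1 to 5, a change of 9.67 ± 1.34 (adjusted p = 2.08e-05). Mice 1 and 2 were highest and mouse 5 lowest, yet each LP 3M library lay above each LP library. Cxcl2 (chr5:90903871-90905938) went from 4.63, 5.37, 3.99, 7.54 and 2.68 CPM to 525, 415, 220.4, 199 and 108 (5.93 ± 0.51, adjusted p = 8.72e-08). Cxcl1 (chr5:90891241-90893115) rose from 0.0839–0.559 to 8.92–63.7 CPM (6.40 ± 0.67) with the mice in the same order. Cxcl5 had 2 counts in LP and 39 in LP 3M, which is a ratio of 17.6 (counting interval 4.56 to 151). It was higher in 4 of 5 mice, and lost its call without mouse 1, 2 or 4. Pf4 stood at 24.4, 24.8, 22.1, 17.0 and 25 CPM in LP and 310.3, 251, 27.9, 29.2 and 25.9 in LP 3M. It was slightly above LP in mice 3 to 5 and far above it in mice 1 and 2, and its call (2.51 ± 0.73, adjusted p = 0.0107) was lost without mouse 1 (adjusted p = 0.0857), in mice 3 to 5 alone (adjusted p = 0.158) and in the fit of the 10 libraries alone that had mouse as a block (adjusted p = 0.156). The list had 3 rises without mouse 1, in mice 3 to 5 alone and with that block.

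Among 19 other chemokines tested, 8 rose and 0 fell (median 1.25; 10 rose and 2 fell with mouse as a block, and 1 fell without mouse 4 or 5). Ccl3, a chemokine that attracts monocytes and T cells, rose from 56.5–120.5 to 268–718 CPM (2.59 ± 0.29). Its neighbour Ccl4 rose by 1.60 ± 0.34, though not in mice 3 to 5 alone (adjusted p = 0.0513), and Cxcl16, a membrane-bound chemokine and scavenger receptor, by 1.25 ± 0.18.

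Il1b, Il1a, Il6 and Tnf rose, the first 3 with wide differences between mice. Il1b, which encodes the inflammasome-processed interleukin-1 beta, had 0.279, 0.383, 0.789, 0.58 and 0.168 CPM in LP and 328, 160.0, 73.5, 75.2 and 3.59 in LP 3M (8.16 ± 1.11, adjusted p = 1.72e-05). Il1a went from 0.0958–1.84 to 9.49–218 CPM (7.46 ± 0.91). Il6 had 4 counts in LP in all and 39.1, 24.9, 10.5, 6.78 and 0.437 CPM in LP 3M (8.55 ± 1.25, adjusted p = 3.55e-05). In these 3 genes mouse 1 was highest and mouse 5 lowest by a wide margin, with no overlap of the groups. Tnf stood at 35.1, 23.5, 38.6, 34.9 and 34.1 CPM in LP and 506, 283, 549.5, 402 and 308 in LP 3M (3.62 ± 0.20, adjusted p = 2.67e-10). Here mouse 2, not mouse 5, was lowest, and the groups lay far apart in each mouse.

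Of 12 tested interleukin-1 family genes 5 rose and 3 fell, and of 28 TNF family genes 9 rose and 5 fell, the latter dropping to 3 without mouse 1, 3 or 4. Il1rn, the receptor antagonist, was at 209, 246, 65.6, 95.7 and 60.9 CPM in LP and 858, 1016, 243, 300.2 and 133 in LP 3M (1.92 ± 0.57, adjusted p = 0.0127); it was higher in each mouse, but the groups overlapped and the call was lost without mouse 4 (adjusted p = 0.0501). Sigirr, an inhibitory receptor of this family, fell by 2.04 ± 0.38 from 2.91 CPM. Il1r2, the decoy receptor, was not tested. Tnfrsf1b, which encodes TNF receptor 2, rose by 1.5 ± 0.15 and the death receptor gene Fas by 2.65 ± 0.20, while Tnfrsf12a, the receptor for TWEAK, fell by 1.55 ± 0.17. Of 23 genes of the interleukin-6, 10 and 12 families, their receptors and SOCS inhibitors, 12 rose and 4 fell (median 0.86), 2 of the falls being called without mouse 1. Socs3, the feedback inhibitor of interleukin-6 signalling, went from 3.4–7.32 to 67.8–421 CPM (5.40 ± 0.49). Ebi3, a subunit of interleukin-27, rose by 1.40 ± 0.17, Il12rb1, a receptor chain for interleukins 12 and 23, by 4.01 ± 0.55, and Il6st, the shared receptor chain gp130, fell by 0.70 ± 0.15.

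Among 11 colony-stimulating factor and receptor genes 4 rose and 1 fell; 2 rose without mouse 1, and 2 fell with mouse as a block in the 10 libraries alone. Csf3, the granulocyte growth factor, had 3 counts in LP, all in mouse 2, and stood at 13, 7.65, 3.53, 1.82 and 0.525 CPM in LP 3M, which is a ratio of 175 (counting interval 59.7 to 853, adjusted p = 0.000493). Csf2 had no counts in LP and 46 in LP 3M, at least 13.8-fold higher against a floor of 3 counts over the group. Csf1 was at 21.4 CPM in LP and 34.8 in LP 3M (0.69 ± 0.36, adjusted p = 0.137), called with that block (adjusted p = 0.0209) and in mice 1 and 2 alone (adjusted p = 0.00095). Kit, the stem cell factor receptor, fell by 2.03 ± 0.44 from 3.41 CPM, not called in mice 3 to 5 alone (adjusted p = 0.088). Of 35 growth and angiogenic factors and receptors 9 rose and 13 fell (median −0.41). Edn1, the vasoconstrictor endothelin 1, rose from 0–0.294 to 1.62–22.8 CPM (6.34 ± 0.85), Inhba, the activin A subunit, by 4.70 ± 0.57, and the activin receptor gene Acvr1b by 0.70 ± 0.082. Flt1, a VEGF receptor, was at 25.1, 33.9, 6.44, 7.25 and 17.8 CPM in LP and 1.02, 1.55, 0.47, 0.841 and 4.59 in LP 3M, a fall of 3.39 ± 0.67 (adjusted p = 0.000621) with mouse 5 highest in LP 3M. Of 18 BCL2 family genes 4 rose and 4 fell (7 rose with that block), near the shares over all tested genes (20% and 19.5%). Bcl2l11, which encodes the pro-apoptotic BIM, fell by 1.26 ± 0.13, and the anti-apoptotic Bcl2a1a and Bcl2a1d rose by 5.40 ± 0.38 and 3.13 ± 0.31. The Bcl2a1 copies are nearly identical, so their reads could be assigned to one another.

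Of 24 prostaglandin and leukotriene genes 8 rose and 6 fell. Ptgs2, the inducible cyclooxygenase, had 2.4, 2.11, 3.37, 1.74 and 1.13 CPM in LP and 289.8, 218, 168, 99.0 and 24.0 in LP 3M (6.21 ± 0.70, adjusted p = 2.31e-06). Ptges, the terminal prostaglandin E synthase, went from 5.18–7.09 to 155–663 CPM (5.81 ± 0.58). The constitutive cyclooxygenase gene Ptgs1 was at 25.3 and 18.2 CPM and was not called (adjusted p = 0.333), except with mouse as a block in the 10 libraries alone, where it was lower (adjusted p = 0.00139), and in mice 1 and 2 alone (adjusted p = 0.000724). Pla2g15, the lysosomal phospholipase A2, fell by 0.88 ± 0.094.

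Irg1 (now Acod1), which makes itaconate from an intermediate of the citric acid cycle, stood at 13.5, 7.86, 50.2, 28.4 and 27.8 CPM in LP and 1139, 965, 856, 784 and 709.8 in LP 3M (5.11 ± 0.39, adjusted p = 1.48e-08), with mice 1 and 2 lowest in LP and highest in LP 3M. Of 38 itaconate and citric acid cycle genes 16 rose and 3 fell (median 0.18; 5 fell with mouse as a block), among them Pcx, pyruvate carboxylase, up by 1.79 ± 0.20, and Pdk2, an inhibitory kinase of pyruvate dehydrogenase, down from 15.1 to 6.7 CPM (−1.17 ± 0.17). Nos2, the inducible nitric oxide synthase, rose from 0–0.438 to 2.14–33.1 CPM (6.47 ± 0.90), Gch1, which makes its cofactor, by 1.36 ± 0.13 and Arg2, the mitochondrial arginase, by 2.76 ± 0.26, in a list with 6 of 19 higher and 3 lower (9 higher with mouse as a block, which is 1.5 times as many). Sat1, a polyamine-catabolic enzyme, fell by 0.78 ± 0.14.

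NAD metabolism genes went both ways, 8 of 23 higher and 5 lower. The 5 were 2 without mouse 1, and 3 without mouse 3 or 4. Cd38, an ectoenzyme that consumes NAD, had 10 counts in LP and 85.1, 66.2, 12.1, 19.3 and 4.72 CPM in LP 3M (8.56 ± 1.15, adjusted p = 1.46e-05). Its relative Bst1 rose by 1.80 ± 0.23, Nadk, which phosphorylates NAD, by 1.19 ± 0.081 and Nampt, the rate-limiting enzyme of NAD salvage, by 0.81 ± 0.11, and Nmrk1, which makes NAD from nicotinamide riboside, fell by 0.52 ± 0.13, a call lost in mice 1 and 2 alone (adjusted p = 0.0778).

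Of 29 glucose, lactate and amino acid transporters 15 rose and 6 fell (median 0.43). Slc7a11, the cystine importer, went from 5.08–18.4 to 130.2–222 CPM (4.06 ± 0.32), Slc6a12, the betaine transporter, rose by 3.31 ± 0.36, and Slc38a2, a glutamine transporter, fell by 0.52 ± 0.083. Slc13a3, a sodium-coupled carrier of dicarboxylates that takes up itaconate (chr2:165405028-165473230), had 2.4, 3.35, 1.14, 1.2 and 1.13 CPM in LP and 812, 535, 167, 505 and 55.2 in LP 3M (7.90 ± 0.87, adjusted p = 1.75e-06). Its level in LP PIC was 0.878 CPM, and the direct test of LP 3M minus LP PIC gave 8.87 ± 0.92 (adjusted p = 7.68e-07). Of 32 glycolysis and hypoxia genes 11 rose and 5 fell, with Hif1a, Pfkl and Hk2 up by 1.10 ± 0.10, 1.20 ± 0.13 and 1.12 ± 0.14, and Epas1, which encodes a HIF alpha subunit, down from 39.0–102 to 5.79–21.3 CPM.

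Of 37 NRF2, glutathione and pentose phosphate genes 17 rose and 0 fell (median 0.31). With mouse as a block 4 were lower (6 in the 10 libraries alone), and 3 without mouse 5. Sod2, the mitochondrial superoxide dismutase, stood at 67.3, 61.0, 89.7, 73.1 and 82.3 CPM in LP and 1325, 1204, 1164, 1055 and 779 in LP 3M (3.89 ± 0.18, adjusted p = 2.89e-11), and Prdx5, a peroxiredoxin, rose by 2.04 ± 0.16. Of 35 unfolded protein and integrated stress response genes 14 rose and 2 fell (5 fell with mouse as a block, 6 with it in the 10 libraries alone, and 4 without mouse 4). The endoplasmic reticulum genes Herpud1, Manf and Hyou1 rose by 1.14 ± 0.12, 1.00 ± 0.14 and 0.71 ± 0.094, and Ddit3, which encodes the stress factor CHOP, fell by 0.53 ± 0.13.

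Of 26 iron and heme genes 9 rose and 4 fell (6 lower with mouse as a block, which is 1.5 times as many). Slc11a1, the iron and manganese exporter of phagosomes that limits bacterial growth, was at 295 to 347 CPM in LP and 731 to 834 in LP 3M (1.28 ± 0.072, adjusted p = 2.28e-10). Slc11a2, the endosomal iron transporter, rose by 1.36 ± 0.076 with LP 3M values within 248 to 255 CPM, and Fth1, the ferritin heavy chain, by 0.70 ± 0.14 (17467 to 28302 CPM), a call lost in mice 3 to 5 alone (adjusted p = 0.0515). Trf, transferrin, had 106, 95, 91.3, 99.0 and 74.2 CPM in LP and 28.4, 28.2, 22.9, 24.2 and 29.6 in LP 3M, a fall of 1.80 ± 0.11 (adjusted p = 6.39e-10) with no overlap of the groups.

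Of 29 acute-phase and antimicrobial genes 16 were tested, 10 rose and 1 fell (median 2.46). Saa3, a serum amyloid A made by macrophages, had 13.1, 7.95, 34.4, 18.9 and 13.4 CPM in LP and 10531, 7919.9, 1422, 2152 and 450.4 in LP 3M (7.99 ± 0.99, adjusted p = 6.49e-06), highest in mice 1 and 2 and lowest in mouse 5. Lcn2, which binds bacterial siderophores, rose from 0.575–8.76 to 65.4–627 CPM (6.11 ± 0.91), haptoglobin (Hp) by 5.08 ± 0.57 and the protease inhibitor Slpi by 3.91 ± 0.42, and Cst3, cystatin C, fell by 0.62 ± 0.11. Lcn2 is also a neutrophil gene. The neutrophil markers summed to 39.5 to 77.6 CPM in LP and 167 to 832 in LP 3M. Without Lcn2 they summed to 38.9 to 73.5 and 102 to 240. Of the 5 neutrophil markers tested 4 rose and 0 fell. Mmp8 ran from 4.24 to 10.3 CPM in LP and 21.5 to 121 in LP 3M, and Csf3r from 29.7 to 65.5 and 66.6 to 102. Elane and Retnlg were at 0 in all 10 libraries.

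Of 20 complement genes 8 rose and 3 fell, 1 of the falls being called without mouse 1. Cfb, factor B of the alternative pathway, went from 6.84–27.6 to 148–465 CPM (4.39 ± 0.41), C1s1, a protease of the classical pathway, rose by 2.83 ± 0.41 to 1.95 CPM, and Fcna, a lectin-pathway ficolin, fell by 1.33 ± 0.19.

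Of 37 extracellular proteases and inhibitors 15 rose and 5 fell (median 0.48). Mmp14, a membrane-anchored collagenase, stood at 27.1, 18.3, 41.1, 32.0 and 36.3 CPM in LP and 1068, 996, 605, 725 and 504 in LP 3M (4.65 ± 0.28, adjusted p = 9.65e-10), with no overlap of the groups. Mmp9, a gelatinase, was at 4.79, 1.92, 0.833, 0.829 and 0.0839 CPM in LP and 666, 584, 12.5, 40.0 and 6.25 in LP 3M (7.27 ± 1.51, adjusted p = 0.000951), far higher in mice 1 and 2 than in the others. Mmp13, another collagenase, was at 28.2, 31.6, 15.2, 15.9 and 12.4 CPM in LP and 134, 129, 13.7, 20.1 and 11.7 in LP 3M, far above LP in mice 1 and 2 and near it in the others, and was not called (adjusted p = 0.173). Timp1, a protease inhibitor, was at 3.23 and 3.95 CPM (adjusted p = 0.721). Serpinb2, which blocks plasminogen activators, went from 0.16, 0.288, 0.175, 0.539 and 0.168 CPM to 266, 179.5, 12.7, 16.6 and 0.875 (8.46 ± 1.71, adjusted p = 0.000737), and its log2 change was 5.05 in mice 3 to 5 alone. Adam17, which sheds TNF, rose by 0.92 ± 0.10, F10, coagulation factor X, by 2.86 ± 0.33, and Serpinb6b, an intracellular serpin, fell by 2.15 ± 0.30.

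Among 31 scavenger and apoptotic cell receptors and ligands tested, 7 rose and 10 fell (median −0.39); the falls were 5 without mouse 4, 6 without mouse 3 and 18 with mouse as a block in the 10 libraries alone. Marco, a scavenger receptor for bacteria and particles (chr1:120474538-120505024), had 0.559, 0.0958, 2.06, 0.995 and 0.503 CPM in LP and 573, 381, 175, 433 and 82.1 in LP 3M (8.49 ± 0.73, adjusted p = 8.51e-08). It was at 2.45 CPM in LP PIC, and LP 3M minus LP PIC gave 7.05 ± 0.67 (adjusted p = 3.24e-07). Olr1, the receptor for oxidised low-density lipoprotein, rose by 4.44 ± 0.60 to 5.48 CPM. Gas6, the bridge between dying cells and the receptor MerTK, fell from 347–470.2 to 110.1–189.8 CPM (−1.60 ± 0.20, adjusted p = 5.27e-06).

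Of 23 tested C-type lectins and Siglecs 12 rose and 2 fell (median 0.56; 4 fell with mouse as a block, and 1 without mouse 1, 2, 3 or 4). Cd302, a C-type lectin, had the smallest p of the genes named here, at 47.3, 42.7, 48.1, 45.6 and 46.0 CPM in LP and 188, 189, 169.6, 152 and 171 in LP 3M (1.92 ± 0.073, adjusted p = 1.52e-12). Clec4e, which encodes the glycolipid receptor Mincle, rose by 4.62 ± 0.32. Siglece, an inhibitory sialic acid receptor, went from 1.24, 1.15, 1.62, 1.53 and 1.01 CPM to 87.9, 68.6, 76.1, 110.0 and 29.6 (5.81 ± 0.46) and stood above LP PIC by 4.75 ± 0.42 (adjusted p = 2.17e-07). Siglecf fell by 2.68 ± 0.57 from 2.9 CPM, not called in mice 3 to 5 alone (adjusted p = 0.095).

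Among 23 Fc receptor and inhibitory receptor genes 9 rose and 3 fell (5 fell with mouse as a block or without LP 3M of mouse 5). The paired receptors Pilra, which inhibits, and Pilrb1, which activates, rose together, Pilra from 5.37–13.9 to 91.7–220.3 CPM (4.20 ± 0.35) and Pilrb1 by 4.12 ± 0.44. Ptpn6, the phosphatase SHP-1 that acts below such inhibitory receptors, rose by 1.02 ± 0.12, and Fcgrt, the neonatal Fc receptor, fell by 0.82 ± 0.14. Of 22 ligands for costimulation and checkpoint receptors 12 rose and 1 fell (median 0.88; 3 fell with mouse as a block or without LP 3M of mouse 5, and 2 without mouse 2 or 5). Cd274, which encodes PD-L1, rose by 1.81 ± 0.22, Slamf7 by 1.5 ± 0.16 and the adhesion molecule gene Icam1 by 1.5 ± 0.22, and Havcr2, which encodes TIM-3, fell by 1.06 ± 0.27, a call lost in mice 3 to 5 alone (adjusted p = 0.0734).

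Antigen presentation genes changed in part. Of 16 MHC class II genes 5 rose and 3 fell, with 3 rises without mouse 4 and 1 fall without mouse 1, 2 or 3; a block for mouse in a fit of the 10 libraries alone gave 9 and 5. H2-Ab1, a class II beta chain, rose by 2.09 ± 0.37 (adjusted p = 0.000258), March1, the ligase that removes class II from the surface, by 1.58 ± 0.23, and Ctss, which trims the invariant chain, fell by 0.55 ± 0.14. Of 21 class I loading and immunoproteasome genes 8 rose and 0 fell (5 rose without mouse 1, and 15 rose and 2 fell with that block in the 10 libraries), among them the non-classical class I gene H2-M2 by 5.87 ± 0.51, the proteasome activator gene Psme2 by 1.10 ± 0.19 and the chaperone gene Canx by 0.43 ± 0.075.

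Of 21 integrin genes 9 rose and 3 fell; 5 rose without mouse 1 or 4, and 5 fell with mouse as a block. Itga9 went from 4.63, 5.27, 4.29, 4.72 and 3.61 CPM to 52.8, 39.0, 25.3, 42.3 and 8 (2.90 ± 0.47, adjusted p = 0.0001), Itgal, the alpha chain of LFA-1, from 64.2–230.2 to 365–723 CPM, and Itga6, a laminin receptor chain, fell by 1.23 ± 0.20. Adgre1, which encodes the macrophage surface marker F4/80, was at 753, 709.6, 643, 629 and 593 CPM in LP and 5398, 5359, 3317, 4203 and 2435 in LP 3M (2.64 ± 0.22, adjusted p = 4.01e-08). It stood at 735 CPM in LP PIC, and LP 3M minus LP PIC was 2.49 ± 0.22 (adjusted p = 1.82e-07).

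Of 42 interferon-stimulated genes tested 7 rose and 0 fell, where 20% of all tested genes rose and 19.5% fell. The list median was 0.41, with per-mouse medians of 0.38, 0.38, 0.48, 0.40 and 0.51. The rises numbered 12 with mouse as a block (27 with the block in the 10 libraries alone) and 3 without mouse 1, 2 or 4. They numbered 4 without LP of mouse 2, 14 in mice 1 and 2 alone and 1 in mice 3 to 5 alone. Gbp2, an interferon-inducible GTPase, rose by 2.16 ± 0.39 and Bst2, which tethers virions, by 1.14 ± 0.29, not called in mice 3 to 5 alone (adjusted p = 0.0843). Tested directly, 41 of the 42 genes were lower in LP 3M than in LP PIC, where 22.7% of all tested genes were lower. Gbp2 was at 113 CPM in LP 3M and 562 in LP PIC (−2.32 ± 0.39, adjusted p = 0.000102). Of 26 inflammasome and pyroptosis genes 13 rose and 6 fell. The sensor gene Nlrp3 stood at 35.8 to 54.2 CPM in LP and 127 to 160.3 in LP 3M (1.73 ± 0.11, adjusted p = 2e-09), Nlrc4, a sensor of flagellin, rose by 0.94 ± 0.095 and the kinase gene Ripk2 by 1.25 ± 0.16, while the sensor gene Nlrp1b fell from 28.9–42.6 to 5.32–17.4 CPM.

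**Figure D3:**
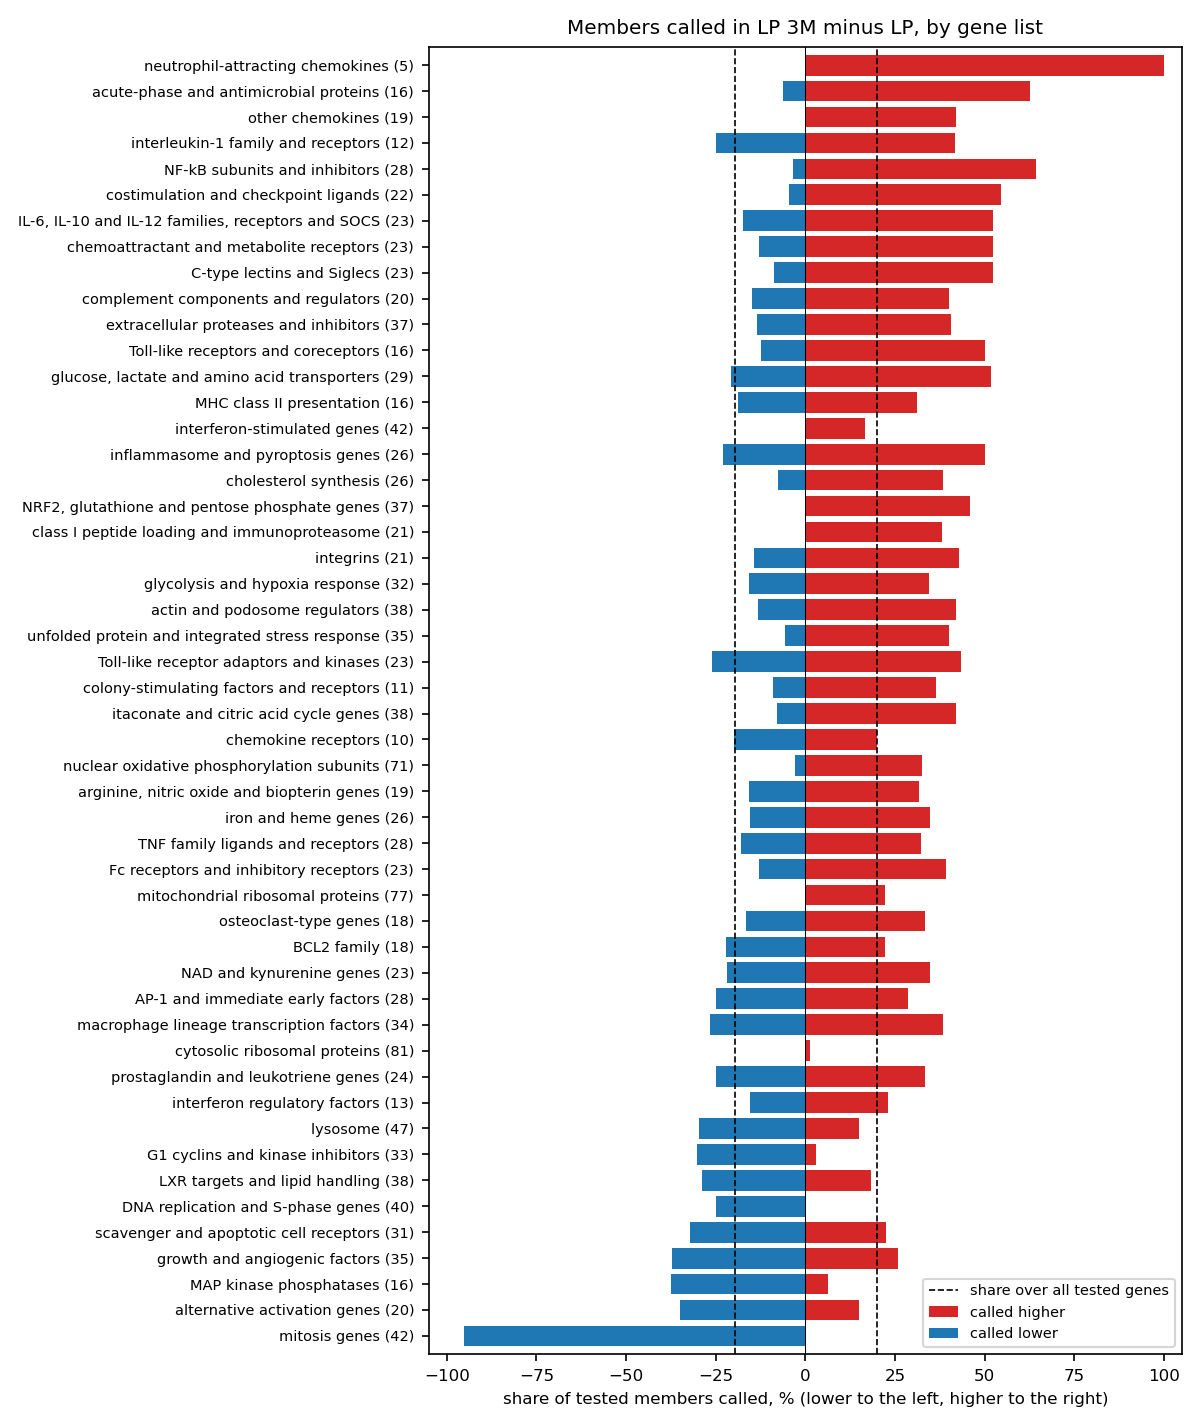
Share of tested members called higher (right, red) and lower (left, blue) in LP 3M for each gene list, with the number of tested members in brackets and dashed lines at the shares over all tested genes (20% and 19.5%). Neutrophil-attracting chemokines had 5 of 5 members higher and mitosis genes 40 of 42 lower; lists share some members.

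Transcription factors of the macrophage lineage went both ways, 13 of 34 higher and 9 lower. Ets2 rose by 1.95 ± 0.18, Spic, a factor of iron-recycling macrophages, by 3.35 ± 0.32 to 9.62 CPM, and Pparg, a nuclear receptor of lipid metabolism, fell from 26.5–40.7 to 11.4–15.9 CPM (−1.38 ± 0.15, adjusted p = 7.74e-07). Of 20 genes of alternative activation 7 fell and 3 rose (median −0.54; 11 fell with mouse as a block in the 10 libraries alone), with Matk, a Src-inhibiting kinase, down (−2.02 ± 0.37) and Il4ra, the interleukin-4 receptor chain, up by 1.19 ± 0.25. Of 18 osteoclast-type genes 6 rose and 3 fell (6 fell with that block), among them Acp5, the tartrate-resistant phosphatase, up by 2.53 ± 0.38, and the transcription factor genes Jdp2 and Prdm1 up by 1.39 ± 0.16 and 1.03 ± 0.11.

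Of 38 LXR targets and lipid-handling genes 7 rose and 11 fell (median −0.21; 17 fell with mouse as a block in the 10 libraries alone). Abcg1, which exports cholesterol to lipoproteins, had 169.5, 200.5, 195, 171 and 162 CPM in LP and 74.5, 68.1, 69.5, 69.1 and 63.6 in LP 3M, a fall of 1.38 ± 0.085 (adjusted p = 7.21e-10) with the 5 LP 3M libraries close together. In LP PIC it stood at 189 CPM, and LP 3M minus LP PIC was −1.46 ± 0.085 (adjusted p = 4.21e-09). The fatty acid-activating enzyme genes Acsl1 and Acsl5 rose by 2.94 ± 0.22 and 0.95 ± 0.11, and Lpl, lipoprotein lipase, fell by 1.27 ± 0.32. Of 26 genes of the cholesterol synthesis list 10 rose and 2 fell (median 0.35). The rises were 17 in a fit of the 10 libraries alone, 18 with that block, 6 with plain library totals, 6 without mouse 1, 5 without mouse 2 and 1 in mice 3 to 5 alone, against 15 in mice 1 and 2 alone. Mvd, an enzyme of the mevalonate pathway, rose by 1.01 ± 0.23.

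The mitosis list had the lowest median of the gene lists, and its size differed by mouse. Of 42 genes 40 fell and 0 rose (median −0.76), against 19.5% lower over all genes. The median differences in mice 1 to 5 were −1.54, −1.07, −0.37, −0.46 and −0.36. In mice 1 and 2 alone 42 of 42 fell, in mice 3 to 5 alone 3 did, 14 fell without mouse 1 and 18 without mouse 2. Cenpa, the centromeric histone, stood at 42.1, 41.0, 16.3, 29.8 and 30.8 CPM in LP and 7.41, 10.2, 8.84, 12.8 and 16.2 in LP 3M (−1.53 ± 0.23, adjusted p = 4.69e-05), and Cdc25b, a phosphatase that starts mitosis, at 74.6, 70.7, 58.0, 64.4 and 55.8 and 21.9, 25.4, 27.2, 31.9 and 38.6 (−1.16 ± 0.17). Kif20a, a kinesin of cell division, was at 67.2, 64.3, 29.7, 48.2 and 49.5 and 20.8, 22.4, 19.8, 30.7 and 33.9 CPM (−1.02 ± 0.19), overlapping between groups and not called in mice 3 to 5 alone (adjusted p = 0.0906). In bulk RNA, fewer dividing cells and less of each transcript per cell cannot be told apart.

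Of 40 DNA replication genes 10 fell and 0 rose (median −0.22; per mouse −0.55, −0.40, −0.01, −0.07 and −0.14). The falls were 29 in mice 1 and 2 alone, 2 in mice 3 to 5 alone, 3 without mouse 1, 4 without mouse 2 and 18 with plain library totals. Pcna, the sliding clamp, was at 511, 598, 352, 389 and 368 CPM in LP and 219, 254, 207, 242 and 271 in LP 3M (−0.90 ± 0.12, adjusted p = 1.23e-05), lower in each mouse. Of 33 G1 cyclins and kinase inhibitors 10 fell and 1 rose (2 rose with mouse as a block or without mouse 1, and 6 with the block in the 10 libraries alone). Ccng2 and Gadd45g were among the falls, by 1.20 ± 0.13 and 1.95 ± 0.30. Against LP PIC directly, 42 of 42 mitosis genes and 37 of 40 replication genes were higher in LP 3M (24.4% of all genes were), Kif20a by 2.12 ± 0.20.

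Of 81 cytosolic ribosomal protein genes 0 fell and 1 rose, Rpl7l1 by 0.16 ± 0.056, a call lost without mouse 1, 3 or 4 and under other settings (highest adjusted p = 0.431). With plain library totals 17 fell, and 3 with mouse as a block or without mouse 2, among them with the block Rps21 (adjusted p = 0.0311) and Rps4x (adjusted p = 0.0376). DESeq2 called 1 higher and 3 lower, and the summed share of the 84 genes ran from 27939 to 34109 CPM in LP and 28073 to 29459 in LP 3M. Processed copies of ribosomal protein genes can share their reads. Where 20% of all tested genes rose and 19.5% fell, nuclear-encoded subunits of oxidative phosphorylation were called higher in 23 of 71 cases and lower in 2. Mitochondrial ribosomal genes rose in 17 of 77 cases, near that share, and fell in 0. With plain library totals these counts were 15 and 3, and 10 and 7. The rises were small, 0.45 ± 0.067 for Atp5b, 0.45 ± 0.074 for Ndufc2 and 0.32 ± 0.059 for Ndufv2, while Mrpl52 rose by 1.59 ± 0.18.

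Of 47 lysosome genes 14 fell and 7 rose (median −0.12). The falls were 7 without mouse 1, 8 without mouse 3 or 4, and 21 with plain library totals, and the rises 3 without mouse 1 and 4 without mouse 2. Ctsb, cathepsin B, fell by 0.42 ± 0.10 (19468 to 14557 CPM) and Ctsf by 0.99 ± 0.16, while cathepsin Z (Ctsz) rose by 0.72 ± 0.12. Ctsd, cathepsin D, fell by 0.50 ± 0.18 (adjusted p = 0.034), not called without mouse 1, 2, 3 or 4 (highest adjusted p = 0.131). Of 38 actin and podosome regulators 16 rose and 5 fell (3 without mouse 2). Marcksl1, an actin-bundling MARCKS protein, went from 22.1–35.6 to 163–329 CPM (3.12 ± 0.29), Tpm4, a tropomyosin, rose by 0.96 ± 0.10 and the formin gene Daam1 by 0.82 ± 0.091, with beta-actin (Actb) up by 0.80 ± 0.17 and thymosin beta 4 (Tmsb4x) by 1.22 ± 0.20. Nes, the intermediate filament nestin, was at 131, 97.0, 83.7, 88.6 and 89.0 CPM in LP and 11.6, 10.6, 25.4, 24.6 and 27.1 in LP 3M (−2.30 ± 0.38), lowest in mice 1 and 2.

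The largest falls named above include genes known from other tissues. Tox2, an HMG-box transcription factor, stood at 19.8, 20.5, 5.52, 8.29 and 4.28 CPM in LP and 1.51, 1.45, 0.517, 1.03 and 0.743 in LP 3M (−3.46 ± 0.47, adjusted p = 1.66e-05). Nptx1, a neuronal pentraxin, fell from 37.5–107 to 5.75–13.6 CPM. The changes were −2.81 ± 0.31 for Chn2, a Rac-inactivating protein, −2.71 ± 0.28 for Pcp4l1, −2.66 ± 0.32 for Nanos1, an RNA-binding repressor, and −2.64 ± 0.32 for Rasgrp3, a Ras activator. Cd34, a progenitor surface protein, was at 7.34, 3.35, 36.9, 16.9 and 11.2 CPM in LP and 0.399, 0.0469, 5.17, 0.654 and 2.76 in LP 3M (−3.08 ± 0.88, adjusted p = 0.00984). It fell in each mouse although the groups overlapped, and the call was lost without mouse 4 (adjusted p = 0.059). Cspg4, a chondroitin sulfate proteoglycan, fell by 2.42 ± 0.79, lost without mouse 3 or 4 (highest adjusted p = 0.0769), and Mamdc2 by 2.57 ± 0.54, lost in mice 3 to 5 alone (adjusted p = 0.0638). Chst3, a chondroitin sulfotransferase, and Efr3b, a plasma membrane scaffold, fell by 2.46 ± 0.48 and 2.44 ± 0.32. The largest falls in CPM, a measure that also follows transcript length, included Spp1, osteopontin, at 5451, 4760.4, 3290.4, 3523 and 3856 in LP and 1482, 1647, 1588, 1507 and 2285 in LP 3M (−1.29 ± 0.24), and Lgals3, galectin 3 (−0.71 ± 0.18). Lyz2, lysozyme, rose by 0.59 ± 0.23 at the edge of the threshold (adjusted p = 0.0487) and lost its call under several settings, without mouse 1, 2, 4 or 5 among them (highest adjusted p = 0.243).

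LP 3M was tested against LP PIC directly to see which of these changes differed between the formulations. Of 12132 genes 5712 differed (47.1%), 2959 higher in LP 3M (24.4%) and 2753 lower (22.7%). Among the 12 largest rises 10 were higher in LP 3M than in LP PIC, by between 2.09 (Fpr2) and 8.87 (Slc13a3). Serpinb2 (1.87 ± 1.11, adjusted p = 0.175) and Saa3 (1.67 ± 0.75, adjusted p = 0.0752) were not called. A block for mouse called Serpinb2 (adjusted p = 0.0302), and Saa3 was called without LP 3M of mouse 5 (adjusted p = 0.0278). These 12 genes were chosen for their rise over LP, and the same LP 3M libraries enter here. That choice favours high LP 3M values, so 10 of 12 is a description and not a separate result. Fpr1 stood at 1.65 CPM in LP PIC, Il6 at 0.642, Il1b at 5.2 and Cxcl2 at 22.0, and LP 3M exceeded these by 6.47 ± 0.42, 4.62 ± 0.81, 4.6 ± 0.86 and 3.74 ± 0.46. The NF-kB regulators Nfkbiz and Zc3h12a differed by 3.04 ± 0.26 and 2.37 ± 0.16, while Tnfaip3 was at 160.0 and 155 CPM (0.04 ± 0.13, adjusted p = 0.814). Among the 12 largest falls only Flt1 was lower in LP 3M than in LP PIC (−1.82 ± 0.66, adjusted p = 0.029). Nptx1, Nanos1 and Pcp4l1 were higher in LP 3M, by 1.74 ± 0.37, 1.68 ± 0.36 and 0.68 ± 0.28 (Pcp4l1 adjusted p = 0.0498). Tox2, Cd34, Chn2, Rasgrp3, Mamdc2, Chst3, Efr3b and Cspg4 were not called (lowest adjusted p = 0.0616, Efr3b).

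Genes lower in LP 3M than in LP PIC included Nos2 (−2.30 ± 0.56, not called in mice 3 to 5 alone), Cfb (−2.28 ± 0.37) and H2-Ab1 (−2.18 ± 0.37). Of 16 MHC class II genes 13 were lower, and of 21 class I loading genes 18. Cholesterol synthesis genes were higher in 18 of 26 cases and lower in 1, actin regulators in 24 of 38 and 1, and lysosome genes in 1 of 47 and 17. Cxcr4 and Traf6 were lower in LP 3M than in LP PIC as well as in LP (−2.36 ± 0.44 and −0.81 ± 0.084 against LP PIC). Both comparisons share the LP 3M libraries.

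The mice shared the direction of change more than its size. Among genes called without 1 mouse, between 98.5 and 99.3% of the rises and between 97.0 and 98.5% of the falls went the same way in the mouse left out, for mice 1 to 4, and 93.1 and 93.0% for mouse 5. The median log2 difference of the genes that rose at least 2-fold was 2.04, 1.98, 1.72, 1.80 and 1.30 in mice 1 to 5, and that of the genes that fell at least 2-fold was −1.69, −1.61, −1.40, −1.48 and −0.87. These medians describe genes chosen by the same data. Of 636 genes with a called 2-fold change and at least 10 CPM, 450 changed least in mouse 5, against 45, 26, 77 and 38 in mice 1 to 4, and 23 changed most there. In the median gene mouse 5 showed 65.7% of the mean log2 change of the others (quartiles 51.4 to 84.1%). Depth of its libraries was within the range of the others. For 299 of the 636 genes the change was larger in mice 1 and 2 than in each other mouse, and for 33 smaller.

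**Figure D4:**
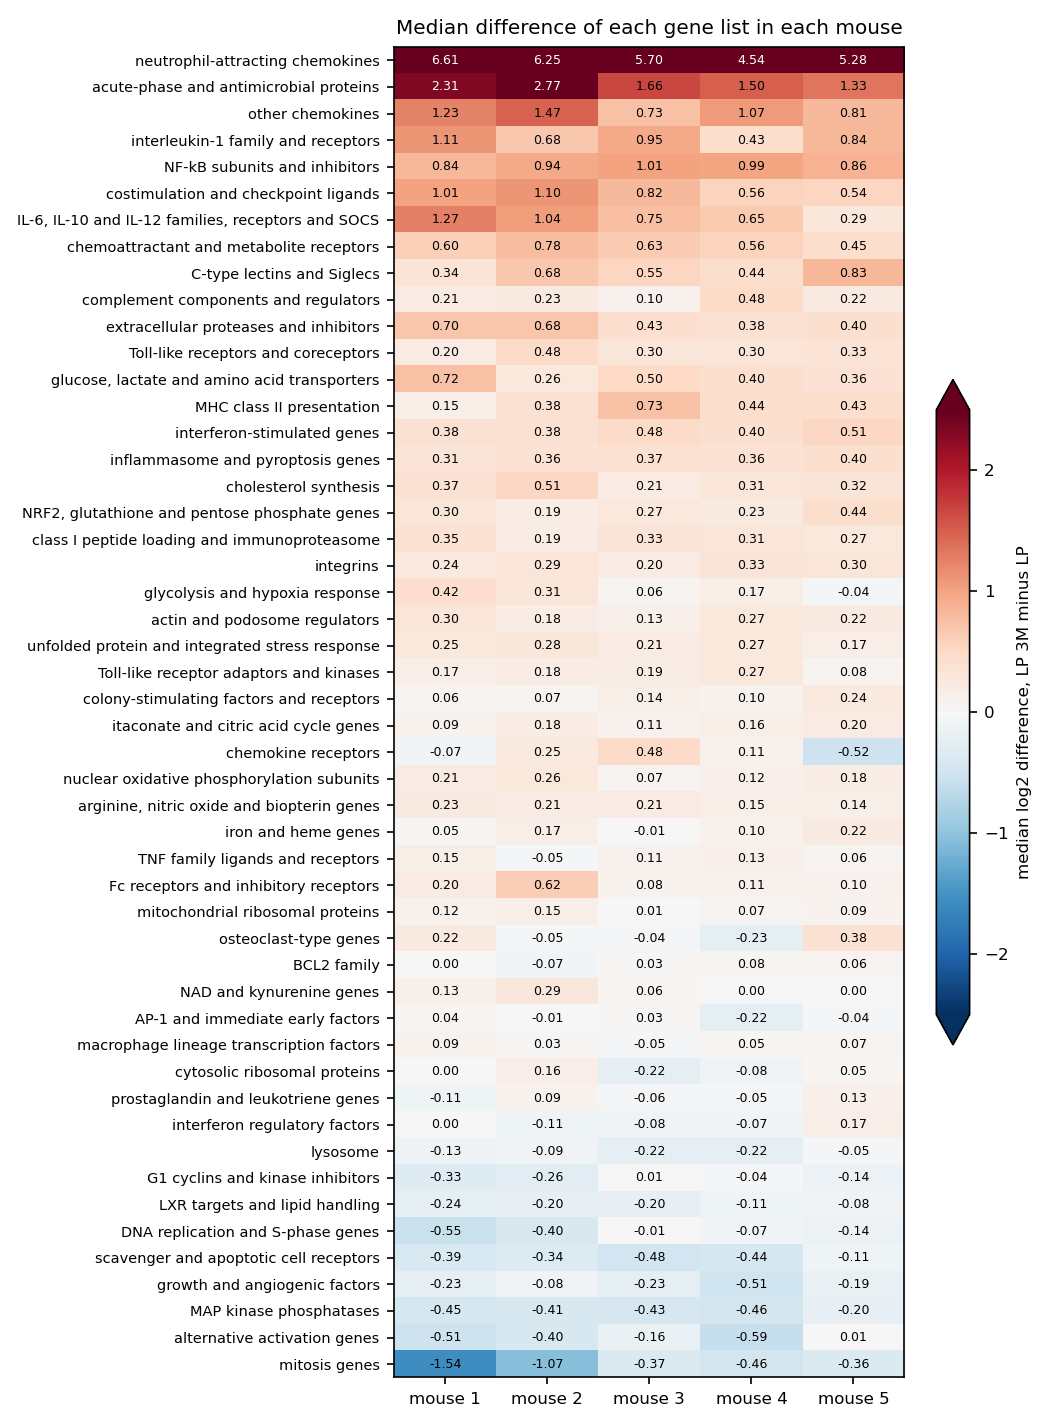
Median log2 difference, LP 3M minus LP, of the tested members of each gene list in each mouse, printed in the cells and coloured from blue (lower in LP 3M) to red (higher), with the colour scale capped at 2.5. Mitosis genes fell by 1.54 and 1.07 in mice 1 and 2 and by 0.36 to 0.46 in the others, while NF-kB genes ran from 0.84 to 1.01.

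Some genes showed the division between mice most plainly. Thbs1, the matrix protein thrombospondin 1, stood at 11.3, 25.7, 52.9, 53.5 and 40.4 CPM in LP and 380.4, 358, 66.8, 70.7 and 35.1 in LP 3M. It was far above LP in mice 1 and 2 and lay within 1.5-fold of LP in mice 3 to 5, so that its call (2.31 ± 0.63, adjusted p = 0.00683, higher in 4 of 5 mice) was lost without mouse 1 (adjusted p = 0.068), in mice 3 to 5 alone (adjusted p = 0.734) and in the fit of the 10 libraries alone that had mouse as a block (adjusted p = 0.278). The log2 differences of Serpinb2 were 10.03, 8.88, 5.56, 4.72 and 1.89 in mice 1 to 5, and those of Il6 were 8.70, 8.05, 5.86, 5.28 and 2.49. Those of Fpr1, in contrast, were 8.48, 9.21, 8.80, 8.48 and 9.05. Mice 1 and 2 and mice 3 to 5 are also the sets that Xist and the Y-linked genes separate. The mouse identifiers in the titles lie close together for mice 1 and 2, and for mice 3 and 4, with that of mouse 5 apart. What the identifiers stand for is not given. For mice 1 and 2 against the others these divisions cannot be told apart, and their part in the pattern was not tested.

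**Figure D5:**
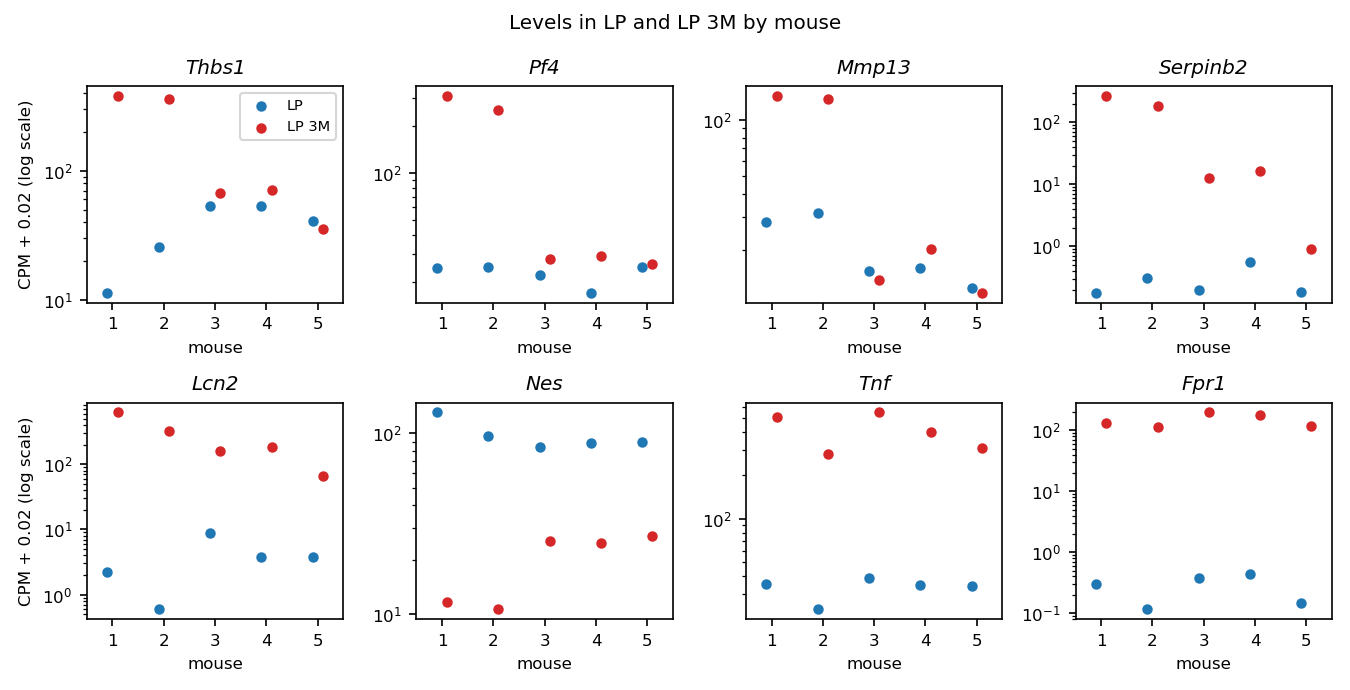
CPM plus 0.02 on a log axis in LP (blue) and LP 3M (red) of each mouse for 8 genes. Thbs1, Pf4 and Mmp13 were raised in mice 1 and 2, at 129 CPM or more in LP 3M, and were near LP in mice 3 to 5; Tnf and Fpr1 were raised to like levels in all 5.

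Markers of other cell types are given here as sums. Endothelial markers summed to 227 to 274 CPM in LP and 102 to 193 in LP 3M, most of it Vwf, von Willebrand factor, which fell by 0.83 ± 0.24 and was not called in mice 3 to 5 alone (adjusted p = 0.15). Of the 4 endothelial markers tested 1 rose and 1 fell. Pecam1, at low level, ran from 0 to 0.411 CPM in LP and 0.262 to 2.09 in LP 3M. The erythroid and megakaryocyte markers, 18.4 to 27.0 CPM in LP and 25.9 to 295 in LP 3M, were mostly Pf4, with Hbb-bs, Hba-a1 and Alas2 at 0. T cell markers, mostly Cd28, summed to 64.1 to 116 and 30.3 to 50.4 CPM with Cd3e, Cd3g, Cd8a and Cd8b1 at 0. Of the 3 T cell markers tested 0 rose and 1 fell, and Cd28 ran from 63.1 to 115 CPM in LP and 28.6 to 49.7 in LP 3M. Fibroblast markers ran from 22.0 to 101 and 49.3 to 108 CPM, monocyte markers from 2.46 to 4.88 and 4.32 to 30.6. Of the 9 fibroblast markers 2 rose and 0 fell, and of 4 monocyte markers tested 1 rose and 0 fell. In mice 1 to 5 Dcn stood at 3.15, 2.98, 0.131, 0.261 and 0.134 CPM in LP and 53.0, 53.1, 3.00, 2.15 and 1.05 in LP 3M. Vcan stood at 1.30, 1.64, 1.48, 1.74 and 1.07 in LP and 22.7, 29.2, 6.58, 8.22 and 2.57 in LP 3M. Sums of B cell, NK cell and dendritic cell markers were at most 1.19 CPM in any of the 10 libraries, and of mast cell markers, mostly Kit, at most 5.09. Their part in the changes above was not tested.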

How the data were processed

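RNA of 20 macrophage cultures was sequenced from stranded poly(A) libraries (Illumina), and the authors deposited raw read counts per gene, 1 table per library. HTSeq 0.13.5, STAR 2.7.11b, DESeq2 1.44.0, FastQC 0.11.1 and the mouse build GRCm38 are listed in the submitters' processing notes. Which strand setting and annotation HTSeq used is not given in the sources. The 5 summary entries of each table were left out; reads in no feature ran from 5.94 to 8.58% and ambiguous reads from 1.14 to 1.39% in the 10 libraries compared.

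Groups were taken from the titles. Genes were kept by edgeR's filterByExpr (minimum count 10, minimum total 15), which left 12132 of 24421 genes and 99.969% of counts. Libraries were scaled by TMM (factors 0.945 to 1.07), and a quasi-likelihood model with 1 mean per condition was fitted over all 20 libraries, which share 1 estimate of the spread (edgeR 4.0.16, limma 3.58.1, R 4.3.3; biological coefficient of variation 0.194). P-values were Benjamini-Hochberg adjusted over all genes and called under 0.05. SE was obtained as the size of the log2 fold change over √F. Differences within mice used log2 CPM with a prior count of 2. Counting intervals and floors of 3 counts cover counting error only.

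Same-numbered libraries come from the same mouse. After removal of group means they correlated at 0.354 to 0.537, against −0.404 to 0.348 for different mice, and 5 of 5 LP 3M libraries correlated best with LP of their own mouse. No 2 libraries were duplicates by a chi-square test. Alternatives were RLE factors, plain totals, other filters, DESeq2 1.42.0, the 10 libraries alone, mouse as a block, and leaving out mice or libraries. The script was tested on simulated counts. Symbols were placed with GENCODE M21 (23376 of 24421 found), and promoters come from RefSeq (172 of 211 named genes matched).

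The gene lists, 50 in all with 11 marker lists, and the naming rule were chosen with earlier results of these data known. Named are the 12 largest rises and 12 largest falls with at least 10 CPM and 1 direction in 5 of 5 mice, the 6 largest rises and falls in CPM, and per list the 3 members of smallest p and the called member of smallest p against its direction. The rule also takes fixed genes of inflammation, the 6 genes that differ most among mice, and up to 3 top markers of other cells. Csf2rb, E2f4 and other genes that the closing section names follow this rule.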

Additional observations from a re-analysis of the deposited data

Results flagged for a closer look

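Among 418 pairs of a named gene and a group, 22 had 1 mouse far from the other 4 by Dixon's test at 95%. The 1 in 20 that chance gives holds for independent pairs. These pairs share libraries, and some genes were chosen for differences among mice, so the count of flags cannot be set against that rate. Of these 22 flags 12 fell on LP 3M of mouse 5, the library that lay nearest to LP in the principal component plot, and the genes share that library.

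In LP 3M, mouse 5 was highest for Cxcr4 at 124 CPM (others 31.6 to 37.9), Flt1 at 4.59 (0.47 to 1.55), Mamdc2 at 19.0 (5.59 to 8.64), Spp1 at 2285 (1482 to 1647), Pdk2 at 10.1 (5.22 to 6.39) and Fcna at 8.40 (4.58 to 5.07). It was also highest for Ccng2 at 15.6 (8.88 to 10.7), Gadd45g at 16.4 (5.54 to 8.56) and Vwf at 172 (87.2 to 106). All 9 genes fell in LP 3M. Mouse 5 was lowest for Jdp2 at 21.3 CPM (others 31.7 to 34.7), Mrpl45, a mitochondrial ribosomal protein, at 49.9 (71.7 to 78.1) and Ndufv2 at 70.6 (73.5 to 74.5), and those 3 rose.

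In LP, mouse 3 was highest for Il1a at 1.84 CPM (others 0.0958 to 0.377), Bcl2a1a at 1.05 (0.24 to 0.373), Map3k14 at 34.1 (26.9 to 28.5) and Csf2rb, the shared receptor chain for GM-CSF, at 583 (399 to 451). Mouse 5 was lowest for Cd14 at 213 (283 to 295), mouse 1 highest for Fcna at 17.6 (12.3 to 13.8) and Nes at 131 (83.7 to 97.0), and mouse 2 alone had Csf3, at 0.288 CPM. In LP 3M, mouse 1 was highest for E2f4, a repressor of the cell cycle, at 72.8 CPM (62.9 to 65.6) and Csf2 at 1.20 (0.0437 to 0.375).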

How the results depend on the processing

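The number of called genes was 4790 and lay between 4476 and 5963 under RLE factors, plain totals, other filters, DESeq2, the 10 libraries alone and both fits with mouse as a block, and no gene was called in the opposite direction. Plain library totals gave 3566 lower genes, against 2368. With mouse as a block 5558 genes were called, and 5963 in the 10 libraries alone; among the named genes the block over 20 libraries changed only the calls of Rps21 and Rps4x in LP 3M minus LP, and lists whose counts it moved by over 1.5 times are named above. In the 10 libraries alone the block also ended the calls of Pf4 and Thbs1 and added those of Csf1, Ptgs1 and Rps21.

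Leaving out 1 mouse at a time gave 3523 to 4932 called genes, 1827 to 2482 higher and 1662 to 2450 lower, with 989 to 1313 at 2-fold or more, and 4209 to 5585 against LP PIC. Mice 3, 4 and 5 alone, chosen after the data were seen, gave 2795 called genes, 1557 higher and 1238 lower, where fewer samples were fitted. Between 1 and 9 calls among the named genes were lost without 1 mouse, and 22 in mice 3 to 5. In mice 1 and 2 alone LP 3M minus LP PIC reversed to −0.0242 for Nadk (adjusted p = 0.828) and to −0.0195 for Adam17 (adjusted p = 0.881); the cause was not tested. LP of mouse 2 had the lowest depth, and without it 4437 genes were called. At a floor of 0.126 to 0.308 CPM on plain library totals, lower levels could not be told from 0.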
